A study of Mus musculus with 4 samples.

Results

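The genes described here are 9 protein-coding neighbours of Ccl5 on mouse chromosome 11 that are not chemokines: Slfn1, Wfdc17, Vmp1, Cltc, Tex14, Sept4, Rnf43, Msi2 and Trim25. They are 9 of the 32285 gene rows of the count matrices and 9 of the 125 genes, Ccl5 left out, that start within 10 Mb of the Ccl5 start and have a mean of at least 10 CPM (the UMI count of the gene as a share of the UMIs of its library, on the usual CPM scale) over the 4 libraries. They were named as neighbours with large ratios between libraries, without a stated minimum, so they were chosen by the ratios of their summed UMIs between these same libraries. The counts of these differences below are therefore a description, and no test is attached to them. All 9 start within 5.47 Mb of Ccl5, and the open question was whether the library from Ccl5-deleted mice stands apart at them in every class of liver leukocyte or in some classes only.

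CD45+ liver cells of female C57BL/6 mice were measured by 10x Genomics 5′ single-cell RNA sequencing in 4 libraries, 1 per group. The young WT mice were 8 weeks old by the labels and untreated. The other 3 groups were 36 weeks old by the labels, had been given the liver carcinogen DEN at 25 mg/kg at 14 days of age, and ate a choline-deficient high-fat diet (CDHFD) from weaning at 21 days. They were WT, miR-146a-/-, and DKO, which lacks both miR-146a and Ccl5 in every cell of the mouse, so DKO and miR-146a-/- differ by label in Ccl5 alone. The number of mice behind each library and the strain in which the Ccl5 allele was made are not given in the sources used here. With 1 library per group there is no replicate check. The 95% intervals below (exact Poisson for a level, exact conditional binomial for a ratio, exact binomial for a share) cover counting error only. Values of the 4 libraries are always given in the order young WT, DEN-CDHFD WT, DEN-CDHFD miR-146a-/-, DEN-CDHFD DKO.

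A targeted allele is passed on with the DNA around it, and backcrossing removes distant donor DNA before near donor DNA. Genes beside a deleted gene can thus differ between mutant and control mice through linked sequence, in each cell type that expresses them, as well as through the loss of the gene itself. Ccl5 is a chemokine made chiefly by T cells and NK cells, and its neighbourhood holds other chemokine genes and the Schlafen family along with genes of unrelated function. No sequence variant was read here, and the origin of the DNA around the deleted allele was not tested.

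After filtering, the libraries held 10283, 8329, 7824 and 9850 cells with a median of 6782, 8210, 7910 and 7558 UMIs. Ptprc, which encodes CD45, was found in 97.9% to 98.4% of the kept cells of each library. Any 2 libraries shared 109 to 150 cell barcodes, at most 1.64% of the smaller library. Cells were grouped into 15 clusters without the genes near Ccl5, and 13 clusters with at least 50 cells in each library were compared. Clusters are called "-like" where fixed markers and leading genes support 1 cell type, and otherwise by their leading genes. The low-UMI cluster (median 1939 UMIs) took 13.02%, 8.81%, 4.68% and 4.11% of the cells, and the Negr1/Fcgr4 cluster held 224, 384, 438 and 1310 cells with T-cell and macrophage transcripts together. Of the fixed markers, those of macrophages (5 of 6) and erythroid cells (2 of 2) were raised there over the other cells. No T-cell set had most of its markers raised. Ccl5 itself stood at 6174, 12544, 12496 and 65.4 CPM, and the DKO library was the lowest of the 4 in all 13 clusters. The log2 ratio of DKO over miR-146a-/- ran from -8.15 to -1.99 between clusters. A Ccl5 UMI was still found in 32.1% of the DKO cells, with up to 483 in a single cell. The source of these UMIs was not tested.

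Over all kept cells none of the 9 genes stood apart in the DKO library, defined as a DKO level at least 1.5 times the highest or at most 1/1.5 of the lowest of the 3 Ccl5-intact libraries; of all 8767 genes tested, 1.22% did. Wfdc17 alone, 1 of the 9, was past 2-fold between DKO and miR-146a-/-, against 1.21% of all genes either way and 0.388% on the low side. The DKO library was the lowest of the 4 for 4 genes, where it was so for 40.6% of all genes. The median log2 ratio of DKO over miR-146a-/- was −0.47 over the 9 genes and −0.03 over all genes tested. Cell composition and level per cell cannot be told apart in these sums.

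**Figure D1:**
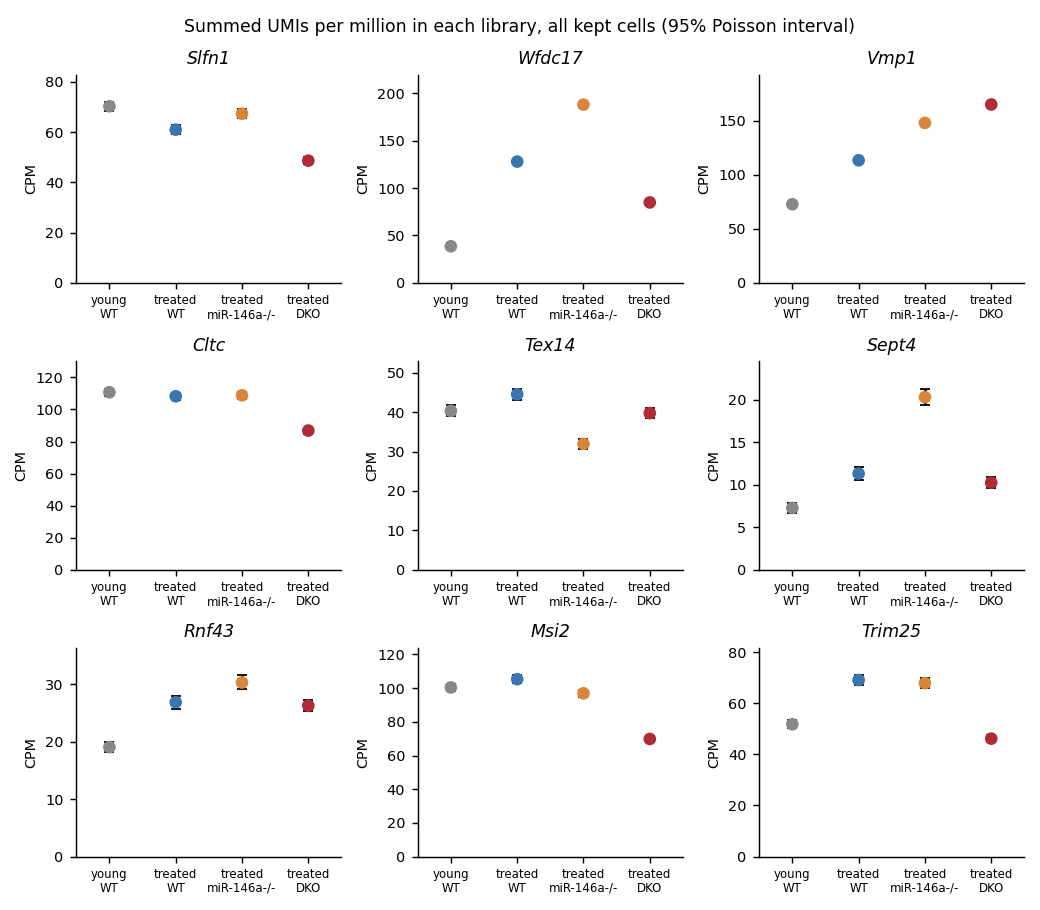
Level of each of the 9 genes in the 4 libraries over all kept cells, in CPM with linear axes that start at 0; points are libraries and bars are 95% Poisson intervals, often smaller than the point. The DKO library is the lowest for Slfn1, Cltc, Msi2 and Trim25 and the highest for Vmp1, while miR-146a-/- is the highest for Wfdc17, Sept4 and Rnf43.

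Within clusters, 99 of the 117 pairs of a gene and a cluster were measurable, meaning a mean of at least 10 CPM and at least 40 UMIs over the 4 libraries. The DKO library stood apart in 20 of these 99 pairs. It was lower in 16 pairs (16.2%) and higher in 4 (4.04%), where all measurable gene and cluster pairs gave 1.13% lower and 0.769% higher. Between clusters the share of all genes apart ran from 0.162% to 4.12% on the low side and from 0.11% to 3.93% on the high side, both highest in the Negr1/Fcgr4 cluster. In 19 of the 20 pairs the Poisson interval of the DKO library lay outside the intervals of the other 3; the exception was Tex14 in the pDC-like cluster. No gene of the 9 stood apart in 50% or more of its measurable clusters, and Sept4 did so in none of 6. The nearest was Slfn1, in 5 of 11. Lower DKO levels were most frequent in the Ccl22/Cd209a and Ace/Vcan clusters, each with 3 of 7 measurable genes lower (1.3% and 2.64% of all genes there). The cycling and CD8 T-cell-like clusters had none of 8 lower and the Dapl1/Foxp3 T cluster none of 7.

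**Figure D2:**
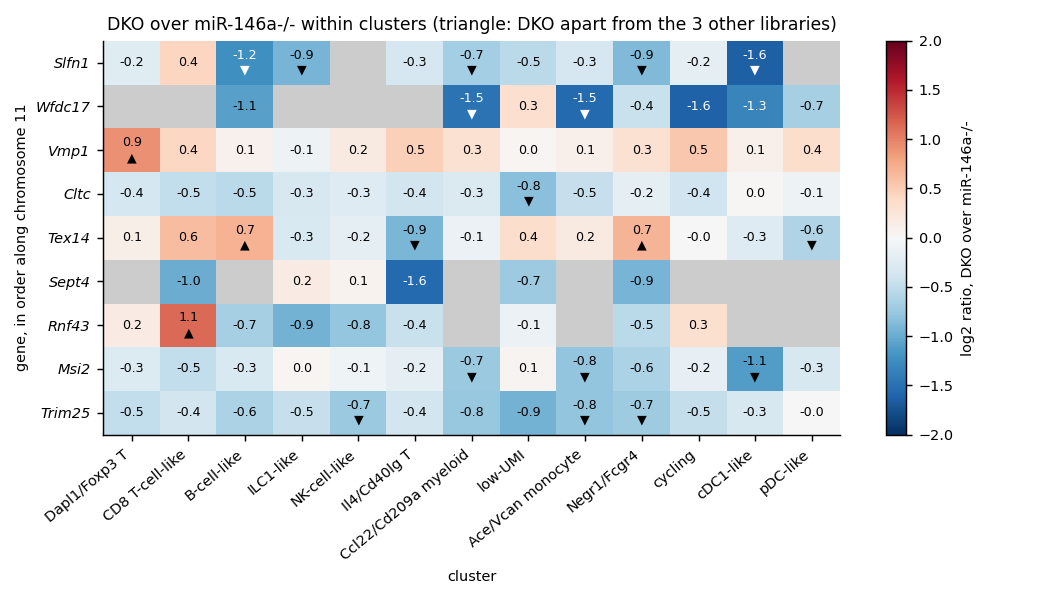
Log2 ratio of DKO over miR-146a-/- for each of the 9 genes (rows, in order along the chromosome) in the 13 compared clusters (columns); grey cells were not measurable, and a triangle marks the 20 pairs in which the DKO library stood apart from all 3 others, downwards for 16 and upwards for 4. The triangles lie in different clusters for different genes, and no row carries one throughout.

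Slfn1 (ENSMUSG00000078763; GRCm38 chr11:83116849-83122670, plus strand; 0.414 Mb from Ccl5 on the low-coordinate side) belongs to the Schlafen family, known for restraining T-cell proliferation and growth. Over all cells it stood at 70.3, 61.00, 67.4 and 48.7 CPM, with a DKO over miR-146a-/- ratio of 0.72 (95% interval 0.69 to 0.75). Over the 3 Ccl5-intact libraries together, its level was highest in a T-cell cluster among the 13. In the Dapl1/Foxp3 T cluster, led by naive and regulatory T-cell genes, it stood at 137, 118, 139 and 118 CPM, so DKO and DEN-CDHFD WT were alike. In the CD8 T-cell-like cluster the values were 129, 83.9, 74.7 and 101 CPM, with DKO above miR-146a-/-. By contrast, the DKO library stood apart on the low side in 5 clusters that hold less Slfn1. These were the Ccl22/Cd209a myeloid cluster with 72.4, 66.6, 56.3 and 35.1 CPM, the Negr1/Fcgr4 cluster with 98.4, 69.1, 61.8 and 33.7 CPM, and the B-cell-like, ILC1-like and cDC1-like clusters with 6.79, 9.30 and 3.55 CPM in DKO. The B-cell-like values, 15.8, 14.6, 15.9 and 6.79 CPM, rested on 174, 107, 87 and 52 UMIs. The Ccl22/Cd209a and cDC1-like clusters no longer stood apart once the cells with the highest doublet scores were removed. The summed level of the 7 CD8 T-cell markers was 474, 848, 710.4 and 362 CPM in the B-cell-like and 952, 2015, 821 and 562 CPM in the Ccl22/Cd209a cluster, with no marker at 0. Like Slfn1, this sum was lowest in DKO in both. Unlike Slfn1, it was highest in DEN-CDHFD WT in both. Its part in the Slfn1 values was not tested. Near-identical stretches among Schlafen genes may also split reads between them.

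Of the 8 Schlafen genes listed, 5 passed the level filter. Slfn8 stood at 63.3, 45.7, 46.9 and 29.3 CPM and Slfn9 at 9.17, 8.95, 8.77 and 14.7 CPM, the first apart on the low side and the second on the high side. Slfn2, at 226, 234, 292 and 303 CPM, and Slfn5, at 39.5, 50.5, 55.4 and 42.1 CPM, did not stand apart. Slfn8 and Slfn9 thus differed in opposite directions in the DKO library. Slfn9, however, passed the level filter only through its high DKO value, so no conclusion on the family is drawn from it. The nearest measured gene to Slfn1 on its low-coordinate side is Gm20234, which overlaps Slfn2 on the opposite strand, so reads of both can be told apart only if strand was used in counting. It stood at 16.9, 12.6, 16.03 and 6.57 CPM and was low in DKO in 6 of 8 measurable clusters.

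Wfdc17 (ENSMUSG00000069792; chr11:83703991-83706268, plus strand; 0.173 Mb from Ccl5) encodes a small secreted WAP four-disulfide protein of activated macrophages. In the sum of all cells the levels were 38.6, 128, 188 and 84.9 CPM, a DKO over miR-146a-/- ratio of 0.45 (95% interval 0.44 to 0.46) and a log2 ratio of -1.15. The young WT library was the lowest of the 4, so DKO fell between the untreated and the treated Ccl5-intact libraries. In the 2 monocyte and macrophage clusters DKO was instead the lowest. The Ace/Vcan cluster, which carries classical and patrolling monocyte markers, gave 321, 375, 539 and 184 CPM. A DKO over miR-146a-/- ratio of 0.34 (95% interval 0.33 to 0.36) followed there. The Ccl22/Cd209a cluster, with macrophage and dendritic-cell markers, gave 331, 376, 537 and 192 CPM and a ratio of 0.36 (95% interval 0.34 to 0.37). These 2 clusters were the ones in which DKO stood apart. In the Negr1/Fcgr4 cluster, at 180.5, 292, 228 and 168 CPM, DKO was close to young WT.

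The DKO library also had the lowest share of cells with a Wfdc17 UMI in both clusters, while the order of the other libraries in the Ace/Vcan cluster depended on thinning. After each cell was thinned to 2000 UMIs, 29.5%, 38.5%, 42.6% and 15.9% of the Ace/Vcan cells had a Wfdc17 UMI, and unthinned 50.7%, 82.7%, 64.2% and 40.2%. In the Ccl22/Cd209a cluster the thinned shares were 36.2%, 42.7%, 54.6% and 28%, and unthinned 76.3%, 80.6%, 91.7% and 71.6%. The NK-cell-like cluster, which should lack the gene, had thinned shares of 0.27%, 1.34%, 0.38% and 0.79%, so the myeloid shares were far above that background in each library. The median depth before thinning was 6887, 8334, 9806 and 8756 UMIs in NK-cell-like and 11034, 15297, 12054 and 10538 UMIs in Ace/Vcan cells. At a finer clustering (resolution 0.4) the cells led by Ace and Eno3, genes of patrolling monocytes, gave 69.4, 133, 157 and 25.6 CPM and those led by Saa3, Fn1 and F13a1 gave 482, 465, 711 and 260.00 CPM. DKO stood apart in both. Cells led by Il12b, Fscn1 and Ccl22, genes of mature dendritic cells, gave 199, 198, 445 and 135 CPM, and there DKO was lowest without standing apart. The 6 classical monocyte markers summed to 2091, 2319.8, 2703 and 2116 CPM and the 8 patrolling ones to 3768, 2794, 3132 and 3504 CPM in the Ace/Vcan cluster, with no marker at 0, while the 7 neutrophil markers there summed to 356, 706, 935 and 1359 CPM. Their part in the Wfdc17 difference was not tested. The neutrophil-like cluster was too small to compare (23, 22, 84 and 75 cells) and gave 491, 486, 167 and 51.2 CPM from 79, 55, 198 and 50 UMIs. Of the other WAP genes, Wfdc21, the nearest measured gene on the high-coordinate side, stood at 1.34, 0.83, 65.3 and 41.3 CPM and Slpi, a protease inhibitor on another chromosome, at 88.9, 73.02, 89.2 and 170.4 CPM, the latter apart on the high side.

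Vmp1 (ENSMUSG00000018171; chr11:86583865-86683836, minus strand; 3.15 Mb) encodes a membrane protein of the endoplasmic reticulum that is needed to form autophagosomes, and the microRNA gene Mir21a lies within it on the same strand but is not a row of the matrices. Of the 9 genes it alone was higher in each next library in the order given. Over all cells it stood at 72.7, 113, 148 and 165 CPM, and each step of that order was larger than the counting error. The treated WT level was 1.56 (95% interval 1.51 to 1.61) times that of young WT. The DKO level was 1.12 (95% interval 1.09 to 1.14) times that of miR-146a-/-. DKO was the highest of the 4 in 12 of 13 clusters, where 20.8% of all gene and cluster pairs had DKO highest, but it stood apart in 1 only.

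That cluster was Dapl1/Foxp3 T, with 64.8, 83.3, 116 and 219.6 CPM and a DKO over miR-146a-/- ratio of 1.89 (95% interval 1.76 to 2.03). At resolution 0.4 it split into cells led by Foxp3, Tnfrsf4 and Ccr8, genes of regulatory T cells, and cells led by Dapl1, Igfbp4 and Lef1, genes of naive T cells. The first had 86.96, 119.7, 154 and 314 CPM and DKO stood apart in them. The second had 51.8, 61.3, 56.99 and 67.7 CPM and DKO did not. The CD8 T-cell-like cluster, led by the exhaustion genes Pdcd1 and Lag3, had 113, 283, 438 and 585 CPM, the highest levels of the 13 clusters in the 3 treated libraries. There each library exceeded the one before it, and DKO was 1.34 times the nearest. In the cycling cluster the levels were 87.4, 106, 133 and 194 CPM and in the Il4/Cd40lg T cluster 66.96, 76.9, 87.9 and 123 CPM. The B-cell-like cluster at 59.7, 68.9, 65.2 and 69.5 CPM and the cDC1-like cluster at 56.01, 72.2, 67.2 and 72.4 CPM showed DKO within the counting error of another library. The 5 regulatory T-cell markers summed to 369, 418, 897 and 877 CPM in the Dapl1/Foxp3 cluster, with none at 0, and their part in the Vmp1 values was not tested. Ptrh2, which starts 0.149 kb from Vmp1 in the opposite orientation, stood at 25.1, 26.6, 26.7 and 26.5 CPM. The 16 listed genes of autophagosome formation included 15 that passed the filter. None of these, Vmp1 among them, was past 2-fold or apart over all cells, and their median log2 ratio was 0.01.

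**Figure D3:**
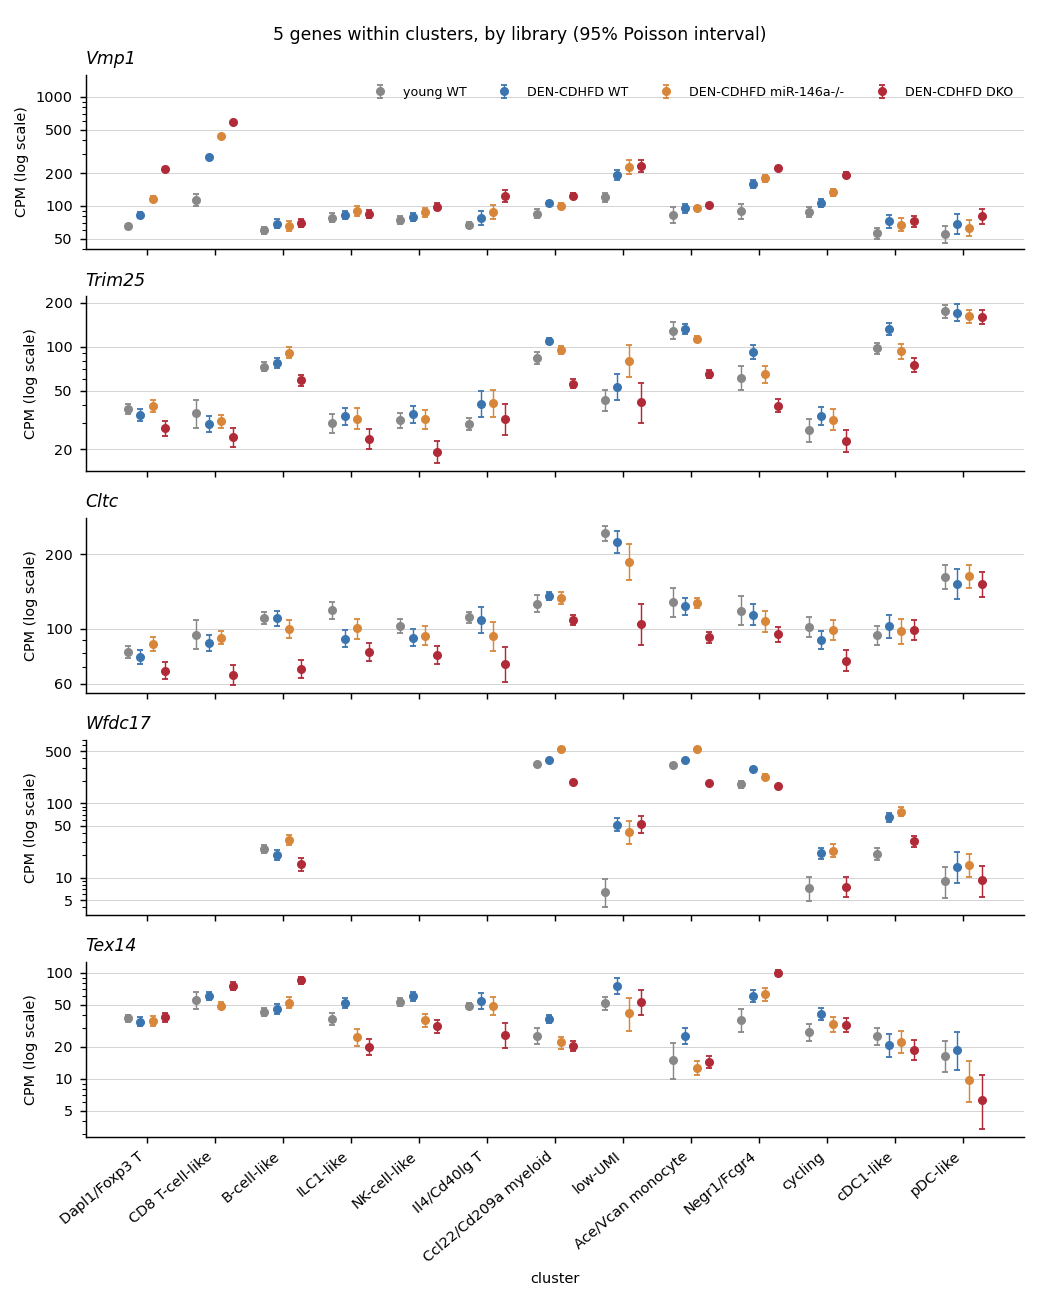
Levels of Vmp1, Trim25, Cltc, Wfdc17 and Tex14 in the measurable clusters, in CPM on a log axis; each point is 1 library and bars are 95% Poisson intervals. Vmp1 is higher in each next library from young WT to DKO in 8 clusters, with the largest ratio of DKO to the next library in the Dapl1/Foxp3 T cluster, Trim25 and Cltc are lowest in DKO in 12 of 13 clusters and stand apart there in 3 and 1 of them, and Tex14 is highest in DKO in some clusters and lowest in others.

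Cltc (ENSMUSG00000047126; chr11:86694351-86757565, minus strand; 3.23 Mb) encodes the heavy chain of clathrin, the coat protein of endocytic vesicles. The 3 Ccl5-intact libraries were nearly level and DKO was below them, at 111, 108, 109 and 86.8 CPM and a ratio of 0.8 (95% interval 0.77 to 0.82). DKO was the lowest of the 4 in 12 of 13 clusters, against 27.4% of all gene and cluster pairs. In 6 of the 12 the Poisson interval of DKO lay below those of all 3 other libraries. The distance was mostly under 1.5-fold: the B-cell-like cluster gave 110.5, 110.3, 99.97 and 68.9 CPM, the CD8 T-cell-like cluster 94.8, 87.9, 92.2 and 65.2 CPM and the Ace/Vcan cluster 128, 123, 128 and 92.4 CPM. In the B-cell-like cluster DKO was the lowest for 57% of all genes. Of the clusters, only the low-UMI cluster stood apart, with 243, 224, 187 and 105 CPM from 867, 403, 149 and 108 UMIs. With gates on transcripts in place of clusters, DKO stood apart in the B gate, at 112.4, 112.2, 114.9 and 72.1 CPM. In the cDC1-like cluster, at 94.1, 102, 97.8 and 99.2 CPM, and in the pDC-like cluster, at 162, 152, 163 and 151 CPM, no library differed from the others by more than its interval allows. All 17 listed clathrin coat genes passed the filter, none was past 2-fold or apart, and Cltc had the largest ratio. The light chain Clta stood at 335, 423, 426 and 467 CPM, higher in DKO where the heavy chain was lower.

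Dhx40, which is not among the 9, starts 50.2 kb from Cltc on its far side, and is named because DKO stood apart at it. It encodes a DEAH-box protein of the RNA helicase family. It stood at 47.8, 51.7, 39.04 and 15.6 CPM over all cells, a DKO over miR-146a-/- ratio of 0.4 (95% interval 0.37 to 0.42). The DKO library stood apart on the low side in 12 of 13 clusters, and in the CD8 T-cell-like cluster it was lowest without standing apart, at 32.9, 29.2, 19.5 and 13.7 CPM. Cltc and Dhx40 thus shared a direction in 12 clusters but not its size. Ptrh2, on the near side of Cltc, was not lowest in DKO beyond its interval in any of 13 clusters.

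Tex14 (ENSMUSG00000010342; chr11:87405065-87555823, plus strand; 3.87 Mb) is known for the stable bridges between germ cells, and several small nuclear and nucleolar RNA genes lie within it. Over all cells it stood at 40.3, 44.5, 31.95 and 39.8 CPM, a range in which DKO was near young WT. Its clusters went in opposite directions. DKO stood apart on the high side in the B-cell-like cluster, with 42.9, 45.5, 52.4 and 84.9 CPM, and in the Negr1/Fcgr4 cluster, with 35.9, 60.6, 62.6 and 100.1 CPM. It stood apart on the low side in the Il4/Cd40lg T cluster, with 48.6, 54.1, 48.9 and 25.9 CPM from 698, 130, 110 and 54 UMIs, and in the pDC-like cluster, with 16.5, 18.5, 9.71 and 6.34 CPM from 35, 25, 21 and 13 UMIs. In the ILC1-like and NK-cell-like clusters both miR-146a-/- libraries were low, with 36.7, 51.9, 24.7 and 19.9 CPM and 53.00, 60.4, 35.6 and 31.3 CPM. The 5 plasma-cell markers summed to 4644, 3548, 4164 and 11191 CPM in the B-cell-like cluster, highest in DKO with none at 0. At resolution 0.4 this cluster separated into B cells led by Fcmr and Cd79a, with 20.05, 30.05, 24.2 and 36.7 CPM of Tex14, and antibody-secreting cells led by Jchain, with 265, 294, 349.6 and 299.7 CPM. DKO did not stand apart in the first, and the second had too few cells to compare. The low DKO value of the Il4/Cd40lg T cluster was found at that resolution too, at 48.6, 53.5, 45.4 and 24.00 CPM.

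Sept4 (ENSMUSG00000020486; chr11:87568903-87590539, plus strand; 4.04 Mb) encodes a septin, a GTP-binding protein that forms cytoskeletal filaments. All cells together gave 7.27, 11.3, 20.3 and 10.3 CPM, a ratio of 0.5 (95% interval 0.47 to 0.55). The highest library was miR-146a-/-, and DKO was below DEN-CDHFD WT by a ratio of 0.91 (95% interval 0.83 to 0.99). Only 6 clusters were measurable, and DKO stood apart in none. The CD8 T-cell-like cluster had 19.05, 36.5, 92.4 and 46.4 CPM, the highest Sept4 level of the measurable clusters in the 3 treated libraries. The 8 NK-cell markers in that cluster summed to 755, 2814, 4292 and 2063 CPM, like Sept4 lowest in young WT and highest in miR-146a-/-, with Klra4 at 0 in DEN-CDHFD WT, and their part in the Sept4 values was not tested. After thinning to 2000 UMIs, 5.78%, 7.19%, 16.7% and 8.47% of its cells had a Sept4 UMI, and unthinned 11.1%, 19.5%, 36.7% and 20.4%. In B-cell-like cells the thinned shares were 0.21%, 0.25%, 0.36% and 0%. The DKO value is 0 of 783 cells, which allows a thinned share of up to 0.383% (3 counts). Unthinned, the DKO cells of this cluster held 17 Sept4 UMIs, so the thinned value does not limit the share of cells that express Sept4. In the ILC1-like cluster the 4 libraries were level at 30.7, 31.2, 28.6 and 31.97 CPM. Of 12 septin genes listed, 6 passed the filter, none was past 2-fold or apart, and Sept1 came next in size at 483, 362, 346 and 279 CPM.

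Rnf43 (ENSMUSG00000034177; chr11:87662722-87735539, plus strand; 4.13 Mb) encodes a ubiquitin ligase that removes Frizzled receptors from the cell surface and so limits Wnt signalling. Over all cells it stood at 19.1, 26.9, 30.3 and 26.3 CPM, a ratio of 0.87 (95% interval 0.82 to 0.92). The CD8 T-cell-like cluster was its exception: 40.3, 31.97, 36.8 and 80.6 CPM, from 93, 274, 407 and 566 UMIs, with DKO apart on the high side and a ratio of 2.19 (95% interval 1.93 to 2.50). In the ILC1-like cluster DKO was the lowest instead, at 41.4, 43.2, 59.2 and 30.8 CPM. In the NK-cell-like cluster miR-146a-/- was the highest, at 35.9, 57.6, 100.04 and 58.6 CPM, and DKO equalled DEN-CDHFD WT within the counting error. In the Dapl1/Foxp3 T cluster the values were 17.96, 23.3, 40.5 and 45.3 CPM, so both miR-146a-/- libraries were high. At resolution 0.4 its Foxp3-led cells gave 38.1, 46.3, 52.7 and 66.1 CPM and its Dapl1-led cells 6.84, 9.37, 21.3 and 11.7 CPM, DKO being nearer to DEN-CDHFD WT than to miR-146a-/- in the latter. The regulatory T-cell markers of the whole cluster, 369, 418, 897 and 877 CPM in sum, moved with its Rnf43 values, and their part in them was not tested. The Rnf43 paralog Znrf3 stood at 53.1, 36.3, 25.7 and 24.99 CPM over all cells. With Lrp6 these were the 3 of 14 listed genes of Frizzled turnover and Wnt feedback that passed the filter, and none was past 2-fold or apart.

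Msi2 (ENSMUSG00000069769; chr11:88339382-88718513, minus strand; 5.19 Mb) encodes a Musashi RNA-binding protein known from blood stem cells. Summed over all cells, the levels were 100.4, 105, 96.9 and 69.8 CPM, a ratio of 0.72 (95% interval 0.7 to 0.74). DKO stood apart on the low side in the Ccl22/Cd209a cluster with 56.6, 77.7, 52.9 and 31.5 CPM, in the Ace/Vcan cluster with 52.5, 64.7, 48.3 and 27.8 CPM and in the cDC1-like cluster with 55.04, 55.6, 62.4 and 28.9 CPM. These 3 are myeloid or dendritic. In no lymphoid cluster did DKO stand apart, but it was lowest in 2. The CD8 T-cell-like cluster gave 142, 186, 178 and 126 CPM, and the B-cell-like cluster gave 102, 105, 108 and 88.1 CPM, with the interval of DKO below those of the other 3 in the latter only. In the B-cell-like cluster DKO was the lowest for 57% of all genes, and TMM factors moved the median log2 ratio of all genes by 0.16. Whether the Msi2 intervals stay separate under that scaling was not tested. The NK-cell-like cluster gave 61.8, 67.05, 70.6 and 66.5 CPM and the ILC1-like cluster 80.8, 76.2, 82.2 and 84.3 CPM. The T-cell markers moved with the myeloid values: the 7 CD8 T-cell markers summed to 727, 1641, 694 and 296 CPM in the Ace/Vcan cluster, with none at 0. Msi2 is higher in T-cell than in myeloid clusters. The transcript gates for myeloid and dendritic cells left out cells with a Cd3d, Cd3e or Cd3g UMI. Msi2 stood at 67.6, 38.1, 33.5 and 23.2 CPM in the monocyte and macrophage gate, with DKO lowest but not apart. In the dendritic gate it stood at 57.5, 59.8, 60.04 and 33.1 CPM, with DKO apart. The part of T-cell transcripts in its difference was not otherwise tested. The highest Msi2 levels were in the low-UMI cluster, at 542, 495, 432 and 449 CPM.

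Trim25 (ENSMUSG00000000275; chr11:88999376-89020293, plus strand; 5.47 Mb) encodes a ubiquitin ligase that acts in RIG-I signalling, the sensing of viral RNA. The all-cell levels were 51.8, 69.1, 67.9 and 46.2 CPM, a ratio of 0.68 (95% interval 0.65 to 0.71). DKO was below miR-146a-/- in 13 of 13 clusters, a count for which no share over all genes is given. It was the lowest of the 4 libraries in 12, against 27.4% of all gene and cluster pairs. The Il4/Cd40lg T cluster was the exception, at 29.9, 40.8, 41.3 and 32.1 CPM. DKO stood apart in 3 of the 13. The Ace/Vcan cluster gave 129, 132, 113 and 65.2 CPM and a ratio of 0.58 (95% interval 0.53 to 0.63). The NK-cell-like cluster gave 31.4, 34.6, 32.05 and 19.1 CPM, and the Negr1/Fcgr4 cluster 61.4, 92.1, 64.9 and 39.7 CPM, where DKO no longer stood apart with TMM factors per cluster. The Ccl22/Cd209a cluster, at 83.4, 109, 95.2 and 56.1 CPM, fell just short. The pDC-like cluster, where the gene was highest, gave 175, 171, 161 and 161 CPM, all within the counting error. At resolution 0.4 DKO stood apart on the low side in 6 of 15 measurable clusters, lymphoid ones among them. The share over all genes at that resolution is not given here. Of the pairs of a gene within 10 Mb of Ccl5 and a cluster, 5.9% stood apart there in either direction. The 6 clusters were the T cells led by Dapl1 and Lef1 (33.3, 33.2, 33.6 and 21.1 CPM), the NK-cell-like cells (31.4, 34.6, 32.05 and 19.1 CPM), the Negr1/Fcgr4 cells (64.7, 90.6, 64.2 and 39.9 CPM), the Ace-led cells (116, 139, 94.2 and 55.3 CPM), the Saa3-led cells (102, 117, 117 and 66.4 CPM) and the Il12b-led cells (77.1, 105, 82.7 and 49.1 CPM). Of the 16 listed genes of RNA sensing and interferon response found in the matrices, 15 passed the filter, none was past 2-fold or apart, and the median log2 ratio was −0.22. Rsad2, an interferon-induced antiviral enzyme, had the largest ratio, at 12.4, 18.4, 12.1 and 8.08 CPM, and Ddx58, which encodes RIG-I, stood at 74.6, 67.6, 68.4 and 58.9 CPM.

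Wfdc17, Msi2 and Trim25 were the 3 genes at which DKO stood apart on the low side in the Ace/Vcan cluster, and their promoters are shown to compare what lies before each start. The 250 bases before the RefSeq start (GRCm38.p6) are written in the direction of transcription, with each CG in capitals. The stretches lie at chr11:83703806-83704055, plus strand, chr11:88718278-88718527, minus strand (the first of its listed starts), and chr11:88999153-88999402, plus strand. RefSeq starts differ from the gene positions given above, which are from GENCODE M21. Each stretch therefore runs into the gene as placed there, that of Msi2 over most of its length.
Wfdc17: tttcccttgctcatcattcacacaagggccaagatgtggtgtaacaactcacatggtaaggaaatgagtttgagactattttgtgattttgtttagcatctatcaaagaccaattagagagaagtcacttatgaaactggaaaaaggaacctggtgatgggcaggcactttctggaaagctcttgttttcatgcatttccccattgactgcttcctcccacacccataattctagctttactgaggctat
Msi2: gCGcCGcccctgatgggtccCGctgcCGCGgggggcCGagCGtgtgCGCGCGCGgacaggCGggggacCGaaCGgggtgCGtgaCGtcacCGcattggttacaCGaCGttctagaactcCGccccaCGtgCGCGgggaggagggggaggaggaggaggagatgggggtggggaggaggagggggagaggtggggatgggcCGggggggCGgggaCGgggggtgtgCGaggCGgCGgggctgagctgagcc
Trim25: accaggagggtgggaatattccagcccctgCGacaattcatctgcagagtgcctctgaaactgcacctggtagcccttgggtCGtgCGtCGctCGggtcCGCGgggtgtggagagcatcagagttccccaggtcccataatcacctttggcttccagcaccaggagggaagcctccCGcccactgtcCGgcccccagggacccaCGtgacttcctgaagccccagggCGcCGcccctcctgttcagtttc
The stretches hold 0, 29 and 12 CG pairs, where the median of 32851 such stretches in the genome was 6. The 9 genes matched 17 stretches, which hold 0 to 30 CG pairs. At least 1 CG pair is found in 92.1% of all such stretches, so Wfdc17 is among the few without one, while Msi2 and Trim25 are above the median. These 3 genes thus differ in this feature.

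The 9 genes were set beside all measured genes around Ccl5. Within 10 Mb, 125 genes were tested, and DKO stood apart at 4 of them over all cells (3.2%, 95% interval 0.879% to 7.99%), against 1.23% of the genes on other chromosomes. The 4 were Dhx40, Gm20234, Slfn8 and Slfn9, none among the 9. Slfn9 was below 10 CPM in each Ccl5-intact library and passed the level filter only through its DKO value. The shares given here count it. All 4 start within 5 Mb, where the share was 5.63% of 71 genes, and none of 54 genes at 5 to 10 Mb or of 197 at 10 to 20 Mb did. Within clusters, 6.27% of the pairs of a gene within 10 Mb and a cluster stood apart, against 1.83% of those of genes on other chromosomes. Of the genes within 10 Mb, 3 stood apart in at least 50% of at least 8 measurable clusters, of 114 such genes. They were Dhx40, Gm20234 and Slfn8, and elsewhere 9 of 7698 genes did. Around Mir146, the deleted microRNA gene, which lies 40.2 Mb away on the same chromosome, none of 65 genes stood apart. Both miR-146a-/- libraries carry that allele, so the rule could not call a difference that they share, and no contrast with Ccl5 is drawn. Between miR-146a-/- and DEN-CDHFD WT, 3.08% of these genes were past 2-fold, against 2.68% of all genes.

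**Figure D4:**
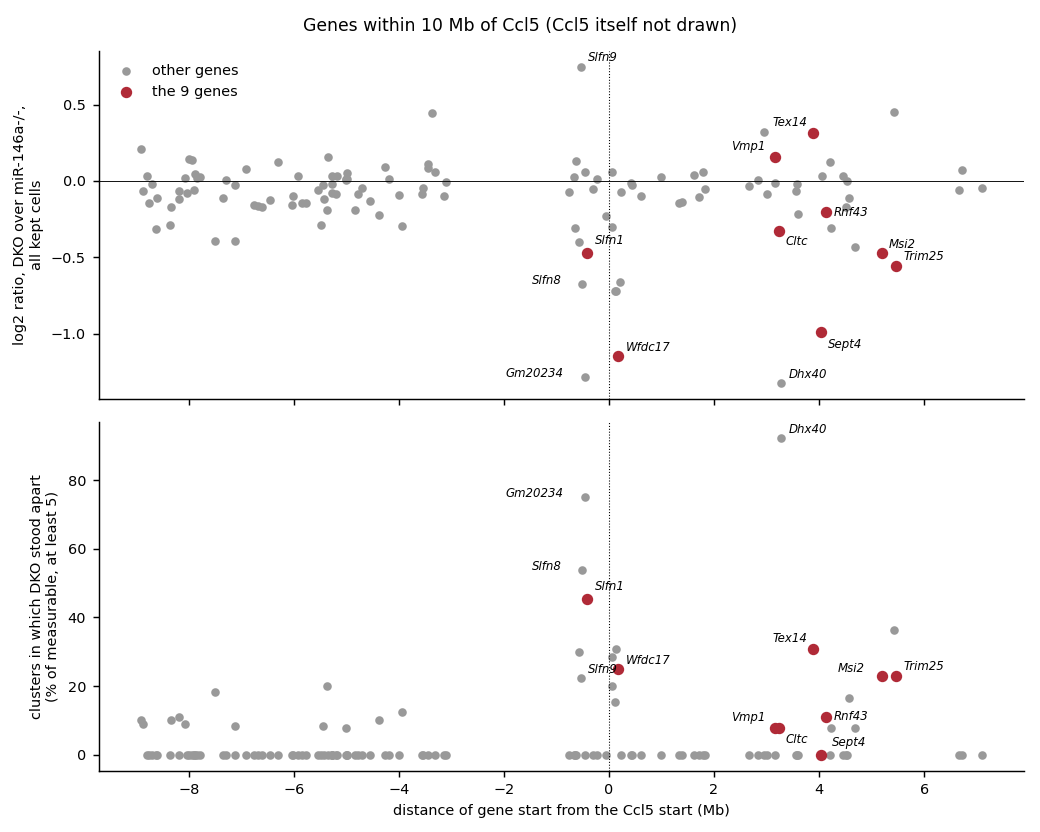
The measured genes within 10 Mb of Ccl5 by the distance of their start from the Ccl5 start, the 9 genes in red. The upper panel shows the log2 ratio of DKO over miR-146a-/- over all kept cells, and the lower panel the percentage of measurable clusters in which the DKO library stood apart, for genes with at least 5. Dhx40, Gm20234 and Slfn8 reach over 50% of clusters, and all 9 genes stay below.

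The pattern of each gene over the 54 points of a cluster and a library with at least 50 cells was compared with that of all other genes by Pearson's r of log2(CPM + 1). The points share libraries and clusters, so r is a description. Slfn1 was most like Oas3 (r = 0.87), Fam160a2 (r = 0.79), Plk3 (r = 0.79). Wfdc17 was most like Csf1r (r = 0.93), Itgb5 (r = 0.92), Ly6i (r = 0.92), the first of which encodes the macrophage growth factor receptor. Vmp1 was most like Cdk6 (r = 0.82), F730043M19Rik (r = 0.78), Syt11 (r = 0.78). For Cltc the nearest were Atxn2 (r = 0.81), Fndc3a (r = 0.77), Snd1 (r = 0.77), and for Tex14 Lnx2 (r = 0.79), Mir155hg (r = 0.78), Ccnc (r = 0.78). For Sept4 they were Cd7 (r = 0.86), Cd200r4 (r = 0.86), Afmid (r = 0.84), and for Rnf43 Pitpnc1 (r = 0.93), Dapk2 (r = 0.93), Kif13b (r = 0.92). For Msi2 they were Smyd3 (r = 0.93), Ankib1 (r = 0.93), Cbfa2t2 (r = 0.92), and for Trim25 Rnase6 (r = 0.91), Sh2b2 (r = 0.90), Zc3h12c (r = 0.89). None of these genes lies within 10 Mb of Ccl5.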

How the data were processed

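The 4 libraries were deposited as raw UMI counts per gene and cell, made by the authors with Cell Ranger (7.0.1 in the file headers) on mm10; the study's methods name another version. The defaults for intronic reads differ between versions, and whether such reads were counted, which would matter most for long genes such as Msi2 and Tex14, is not given in the sources used here. The 9 genes, the lists and the comparisons were chosen with earlier results of these data known. As in the study, a cell was used if it had 600 to 6000 features and no more than 5% of its UMIs from mitochondrial genes (36286 of 39121). Clusters were made in Seurat 5.3.0 (R 4.3.3): SCTransform per library, reciprocal PCA anchors applied to a joint embedding, 11 components, resolution 0.2; of 3000 features, 37 genes within 10 Mb of Ccl5 were left out. UMIs were summed per library, over all kept cells and per cluster, and expressed as CPM. Log2 ratios used a prior of 0.5 counts. Scrublet (scanpy 1.11.5) marked 1 cell, so no doublet was removed. Positions came from GENCODE M21 (32235 of 32285 gene IDs matched). The rules were tested on simulated data: over all kept cells, 100% of 50 genes lowered to 0.5 of their level stood apart, 98% in the Ace/Vcan and 84% in the pDC-like cluster. The Ccl5-intact libraries were given equal levels in that simulation and differed by counting error only. In the data their levels differ, so these shares do not tell how many such differences the rule finds here. The named genes were the 9, their nearest measured neighbours, neighbours at which DKO stood apart, the 3 genes most like each in pattern, and up to 4 of each list; Slfn2 and Ddx58 were chosen after their values were seen. The alternatives tried were TMM factors (edgeR 4.0.16), all deposited cells, a mitochondrial limit of 10%, thinning to 2000 UMIs, removing the 8% of cells with the highest doublet scores, equal cluster weights, other folds, level filters and windows, other clusterings, and gates on transcripts.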

Additional observations from a re-analysis of the deposited data

Results flagged for a closer look

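Tex14 was the gene of the 9 at which the DKO library was at least 1.5 times the highest other library in some clusters and at most 1/1.5 of the lowest in others. Its DKO level was 84.9 CPM in the B-cell-like and 100 CPM in the Negr1/Fcgr4 cluster, both above the other libraries. It was 25.9 CPM in the Il4/Cd40lg T and 6.34 CPM in the pDC-like cluster, both below them. The difference between clusters was not tested, since each group is 1 library.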

How the results depend on the processing

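No paired analysis was possible because each group is 1 library. Of 81 ratios of single genes under 9 alternatives, none changed sign, 60 stayed within the counting interval of the reported ratio and 21 moved beyond it. The count of 1 gene past 2-fold became 0 after thinning to 2000 UMIs, where the log2 ratio of Wfdc17 was −0.96, 2 without the highest doublet scores, where that of Sept4 was −1.02, and 2 at 1.5-fold. The median log2 ratio of −0.47 became −0.30 with clusters weighted equally. The 20 pairs of a gene and a cluster of 99 measurable became 3 of 99 at 2-fold, 12 of 60 at a mean of at least 50 CPM, 11 of 76 at resolution 0.1, 13 of 76 without integration and 4 of 35 with transcript gates. With the gates these were Cltc in the B gate, Wfdc17 and Trim25 in the monocyte and macrophage gate, and Msi2 in the dendritic gate. Without the Negr1/Fcgr4 and low-UMI clusters, chosen after seeing the data, 16 of 81 remained, 13 lower and 3 higher. With TMM factors per cluster 19 of the 20 pairs were kept; Trim25 in the Negr1/Fcgr4 cluster was lost. Without the highest doublet scores 18 of the 20 were kept; Slfn1 in the Ccl22/Cd209a and cDC1-like clusters was lost. TMM factors moved the median of all genes by 0.16 (log2) in the B-cell-like cluster and by under 0.1 elsewhere. For genes within 10 Mb, the share past 2-fold (2.4%) became 7.2% at 1.5-fold, 5.29% at 1 CPM, 4.23% within 5 Mb and 0.932% within 20 Mb; the share apart (3.2%) became 0.8% at 2-fold, 0% at 50 CPM, 5.82% at 1 CPM, 5.63% within 5 Mb, 1.24% within 20 Mb, and, with 3 genes in place of 4, 2.4% with TMM factors, 2.36% in all deposited cells and 2.38% with clusters weighted equally; the share of pairs apart (6.27%) became 2.26% at 2-fold and 9.24% at 1 CPM. Causes were not tested. In small clusters depth limits what can be seen: the DKO level of Tex14 in the pDC-like cluster rests on 13 UMIs.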

Other observations

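Scpep1, a serine carboxypeptidase gene that starts between Msi2 and Trim25, was the nearest measured gene on the facing side of both. It stood at 31.8, 45.5, 46.4 and 63.4 CPM over all cells. The DKO library was the highest of the 4 in 9 of its 11 measurable clusters, against 20.8% of all gene and cluster pairs, and stood apart in 4. They were the cycling cluster with 18.4, 16.2, 23.4 and 55.5 CPM, the Dapl1/Foxp3 T cluster with 8.04, 8.85, 11.1 and 42.3 CPM, the CD8 T-cell-like cluster with 7.79, 3.15, 3.97 and 25.8 CPM and the NK-cell-like cluster with 7.30, 8.86, 9.82 and 27.6 CPM. In all of them but the cycling cluster, the Ccl5-intact libraries averaged below 10 CPM. Those pairs were measurable only through the high DKO value. In the pDC-like cluster, where Scpep1 was highest, the levels were 213, 218, 234 and 291 CPM and DKO did not stand apart. In the Ccl22/Cd209a and Ace/Vcan clusters DKO was the lowest.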
